A study of Mus musculus with 6 samples.

Results

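Glial cell line-derived neurotrophic factor (GDNF) reaches the cell through a receptor of separate parts. GFRA1, a protein held on the cell surface by a lipid anchor, binds GDNF, and the complex then activates Ret, a receptor tyrosine kinase that spans the membrane. GFRA2, GFRA3 and GFRA4 are the matching co-receptors for neurturin, artemin and persephin, and the neural cell adhesion molecule NCAM1 can serve as a signalling partner of the GFRA proteins in place of Ret. In the testis, GDNF comes mainly from Sertoli cells and drives the self-renewal of spermatogonial stem cells, and cultures of these cells are grown with GDNF in the medium. The genes described here are the 4 co-receptor genes Gfra1 to Gfra4, Ret and Ncam1. They were taken by gene symbol and are 6 of the 32285 genes of the count table, each found once.

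The cells were germline stem (GS) cells, spermatogonia cultured from the testes of DBA/2 mice aged 2 to 3 days that carried the EGFP transgene Tg14(act-EGFP-OsbY01), which was bred into that strain from C57BL6. Both groups carried this transgene, and both were expanded on mouse embryonic fibroblasts in medium with GDNF and FGF2 and stored frozen for 6 months, on the International Space Station (Space, 3 libraries) or on Earth (Ground, 3 libraries). RNA was taken on the day after thawing, without passage, so feeder cells can be in the sample. The series states 3 biological replicates per group and the study calls them lines, but no label says which libraries share a culture, so a spread between libraries may be partly technical. The treatment label of all 6 libraries is the opposite of the title. Groups here follow the titles and the column names, and every sign would turn if the treatment label were right.

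Libraries held 19015985 to 24110916 counts. No library was a repeat of another, but each was closest to a library of the other group. The median chi-square of the counts relative to sampling noise was 1.55 between Ground-1 and Space-3, 2.71 between Ground-3 and Space-1, 2.83 between Ground-2 and Space-2, and 5.67 to 12.3 for the other pairs. The share of counts on mitochondrial genes ran from 2.51% to 11.5%, and it was highest in Ground-2 within Ground and in Space-2 within Space (7.12%). The germ cell genes fixed as markers, among them Ddx4 and Dazl, summed to 3921 to 4045 CPM (counts scaled to the size of the library) in Ground and 3935 to 4105 CPM in Space. Markers of feeder fibroblasts, mostly Fn1 and Col5a1, summed to 1041 to 1086 CPM in Ground and 858.9 to 1091 CPM in Space, with Space-1 the lowest library. The sum says little of its smaller members. Space-1 was the lowest library in each of the 20 markers but Fn1 and Twist1. Col1a2 had 13.3 CPM in Space-1 against 29.7 to 33.8 CPM in Ground, with 25.95 CPM in Space-2 and 23.96 CPM in Space-3. Twist1, an exception, had 8.11 CPM in Space-1 against 7.82 to 9.69 CPM in Ground. The edgeR log2 fold change was negative, with Space below Ground, in 19 of those 20 fibroblast genes, of which 4 had an unadjusted p below 0.05 (0.609% of all tested genes did) and 0 passed after adjustment. The groups did not overlap in 3 of the 20, against 3.59% of all tested genes. Markers of other testis cells were low: those of Sertoli cells summed to 24.4 to 27.9 CPM in Ground and 25.5 to 26.7 CPM in Space, those of endothelium to 10.9 to 20.7 CPM and 10.5 to 19.0 CPM, and those of macrophages, mostly Cd68, to 14.1 to 22.6 CPM and 17.3 to 21.9 CPM. The macrophage marker Adgre1 had 1 count in all. In bulk RNA, fewer cells of a type and less RNA per cell cannot be told apart.

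The levels of the 6 genes, per kilobase of exon, spanned more than 2 orders of magnitude. Ret stood first at 61.9 ± 3.97 CPM per kilobase (mean ± SD over the 6 libraries, lowest 59.3 and highest 67.7). Gfra1, the GDNF co-receptor, was next at 23.8 ± 4.18, with a range of 18.3 to 27.1. Gfra3 (5.04 ± 0.442) and Gfra4 (4.57 ± 0.395) followed with ranges that overlapped, so these neighbours did not differ beyond their spread, and their order turned when the longest transcript was used as the length. Ncam1 came next at 1.10 ± 0.249 and Gfra2 was the lowest at 0.252 ± 0.0390. No library broke the order between Ret, Gfra1, the pair of Gfra3 and Gfra4, Ncam1 and Gfra2. Among all 15104 genes tested, 95.7% had a lower per-length level than Ret, 83.7% than Gfra1, 49.1% than Gfra3, 47.2% than Gfra4, 24.5% than Ncam1 and 7.25% than Gfra2.

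**Figure D1:**
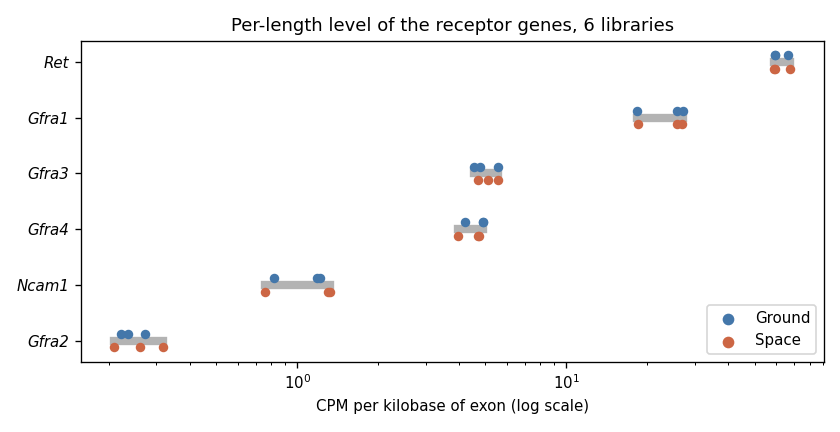
CPM per kilobase of exon for each of the 6 receptor genes on a log axis, with 1 point per library (Ground and Space in separate colours) and a grey bar from the lowest to the highest library. Ret lies between 59.3 and 67.7, Gfra1 between 18.3 and 27.1, Gfra3 and Gfra4 overlap, and Gfra2 stays below 0.316.

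The 4 co-receptor genes are paralogs, so reads could in principle be counted for the wrong one. The coding sequence of Gfra1 (1404 bases) was 64.5% identical to that of Gfra2 (1392 bases), 57% to that of Gfra3 and 56.6% to that of Gfra4. The most alike 76-base coding stretches, the read length given in the study's methods, are shown because they are where a read would be hardest to place. They are printed 5′ to 3′ on the gene's own strand (GRCm38), with the 13 bases that differ in capitals. Gfra1 is at chr19:58300485-58300560, minus strand, in exon 5 of 10, and Gfra2 is at chr14:70925751-70925826, plus strand, in exon 4 of 9.
Gfra1: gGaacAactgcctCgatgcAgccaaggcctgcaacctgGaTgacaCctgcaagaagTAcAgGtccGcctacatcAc
Gfra2: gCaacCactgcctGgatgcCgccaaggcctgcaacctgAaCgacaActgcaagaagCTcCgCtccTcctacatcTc
The next pair, Gfra1 at chr19:58300311-58300386 (minus strand, exon 5 of 10) and Gfra4 at chr2:131041470-131041545 (minus strand, exon 2 of 6), differs at 23 bases, again in capitals.
Gfra1: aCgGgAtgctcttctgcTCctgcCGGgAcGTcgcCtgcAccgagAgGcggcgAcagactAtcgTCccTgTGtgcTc
Gfra4: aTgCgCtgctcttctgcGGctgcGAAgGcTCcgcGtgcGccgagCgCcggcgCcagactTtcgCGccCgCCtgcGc
No 76-base run of any of the 6 genes was found in the transcripts of another of the 6. Runs shared with any other gene made up 6.15% of those of Gfra1, 1.93% of those of Ncam1 and 0.212% of those of Gfra4. For Gfra2, Gfra3 and Ret there were 0. The runs of Gfra1 were shared with the opposite-strand gene Gm16277, which overlaps 416 of its exonic bases and had 1 count in Ground-1 and 0 in the other libraries, and 417 exonic bases of Ncam1 overlap the opposite-strand gene Gm11149, at 0 in all 6 libraries. Runs of Ncam1 were also found in Sv2c, a gene elsewhere in the genome with 96, 71 and 36 counts in Ground and 33, 57 and 95 counts in Space, again lowest in Ground-3 and Space-1. The runs of Gfra4 were shared with Mir6973b, on the same strand, which is not a row of the count table used here. Whether the counting used strand is not given in the sources used here.

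Gfra1 (ENSMUSG00000025089, chr19:58235604-58455909, minus strand) had 141.6, 148.6 and 100.4 CPM in Ground-1, Ground-2 and Ground-3, and 101.3, 141.1 and 147.6 CPM in Space-1, Space-2 and Space-3. Ground-3 and Space-1 were about equally low, the other 4 libraries lay close together above them, and the groups overlapped. The group means were 130.2 ± 26.0 CPM (SD, n = 3) in Ground and 130.0 ± 25.1 CPM (SD, n = 3) in Space. The log2 fold change from Ground to Space was −0.0019 (SE 0.18), with a 95% interval of −0.42 to 0.42, which spans 0.748-fold to 1.33-fold. The spread between libraries was far above counting error, at 92.4 times the variance that counting alone gives, and 7.7e-05% of the sum of squares of its log2 CPM lay between the groups.

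Ret (ENSMUSG00000030110, chr6:118151745-118197718, minus strand), the kinase through which GFRA1 signals, had the smallest SD of log2 CPM of the 6, counting error included. It had 401.3, 448.5 and 401.4 CPM in the 3 Ground libraries and 403.3, 457.9 and 400.7 CPM in the 3 Space libraries. The other 4 libraries lay between 400.7 and 403.3 CPM, below Ground-2 and Space-2, which also had the highest mitochondrial share of their groups. Without Ground-2 and Space-2 the log2 fold change of Ret was 0.0055 (SE 0.073; an alternative chosen after the data were seen). The mean was 417.1 ± 27.3 CPM in Ground and 420.6 ± 32.3 CPM in Space (SD, n = 3 each). With all 6 libraries it was 0.012 (SE 0.076, 95% interval −0.16 to 0.19, or 0.893-fold to 1.14-fold). The SD of log2 CPM over the 6 libraries was 0.0905, and 27.7% of the genes tested had a smaller one. The median over all genes tested was 0.151. The variance of Ret between libraries was 35 times that of counting alone. This multiple grows with the number of counts, so it cannot be compared with that of genes with fewer counts. Gfra3 and Gfra4 had larger SDs of log2 CPM, 0.125 and 0.127. Their counting error was also larger, 6.72% and 6.77% a library against 1.04% for Ret. Beyond counting error, Ret is therefore not shown to be steadier than Gfra3 or Gfra4.

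Gfra3 (ENSMUSG00000024366, chr18:34689898-34720387, minus strand), the artemin co-receptor, had 9.51, 11.1 and 9.08 CPM in Ground and 11.1, 10.2 and 9.40 CPM in Space. Its highest and lowest libraries differed 1.23-fold, and it did not share the low values of Gfra1 in Space-1, where it was at its upper end. Between the groups the log2 fold change was 0.047 (SE 0.14, 95% interval −0.27 to 0.37). Gfra4 (ENSMUSG00000027316, chr2:131039632-131043088, minus strand), the persephin co-receptor, had 10.6, 10.7 and 9.12 CPM in Ground and 8.57, 10.3 and 10.2 CPM in Space. Ground-3 and Space-1 were again the lowest libraries, but by less than for Gfra1. The variance between libraries was 1.74 times that of counting alone for Gfra3 and 1.70 times for Gfra4. The order of the libraries is thus close to counting error in both genes. Space against Ground gave −0.064 on the log2 scale (SE 0.14, 95% interval −0.38 to 0.26).

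Gfra2 (ENSMUSG00000022103, chr14:70890120-70979838, plus strand), the neurturin co-receptor, was close to the depth limit. It had 19, 18 and 19 counts in Ground and 18, 21 and 23 counts in Space, which is 0.782, 0.958 and 0.833 CPM and 0.741, 1.12 and 0.920 CPM. The variance between libraries was 0.449 times that of counting alone, so no difference between libraries was detectable at this depth. Its log2 fold change was 0.11 (SE 0.30), and the 95% interval of −0.59 to 0.80 reaches from 0.666-fold to 1.74-fold, the widest of the 6 genes.

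Ncam1 (ENSMUSG00000039542, chr9:49502136-49798925, minus strand) had 10.3, 10.5 and 7.10 CPM in Ground and 6.59, 11.5 and 11.3 CPM in Space. It varied more between libraries than the other 5 genes, 1.75-fold from lowest to highest, with Ground-3 and Space-1 lowest as for Gfra1. Its log2 fold change was 0.075 (SE 0.25, 95% interval −0.51 to 0.66, or 0.704-fold to 1.58-fold), and 79.7% of tested genes had a smaller SD of log2 CPM than its 0.350. Ncam1 is also expressed by nerve and glial cells. Markers of those cells summed to 10.2 to 13.7 CPM in Ground and 12.3 to 13.6 CPM in Space.

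**Figure D2:**
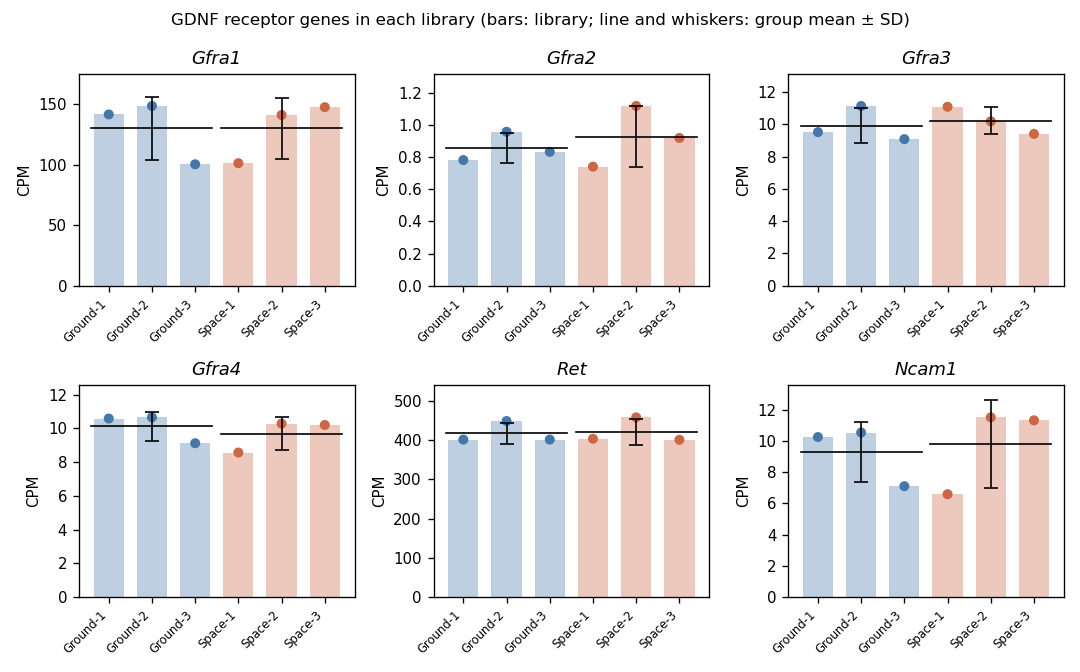
CPM of each of the 6 receptor genes in each library (bars and points, Ground and Space in separate colours), with the group mean as a black line and whiskers of 1 SD (n = 3). Ground-3 and Space-1 are the lowest bars for Gfra1 and Ncam1, Ground-2 and Space-2 the highest for Ret, and the groups overlap in all 6 panels.

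No difference between Space and Ground was detected in any of the 6 genes. In edgeR's quasi-likelihood test, with Benjamini-Hochberg adjustment over 15104 genes, all 6 were tested, and 0 passed an adjusted p of 0.05 (adjusted p = 0.9999 for each). Before adjustment, 0 of the 6 were under 0.05. Over all 15104 genes 0 passed (0% called), 92 (0.609%) were under 0.05 before adjustment, and in 542 (3.59%) the groups did not overlap, against 0 of the 6. The 0.609% is well below the share of 0.05 that p-values give where nothing differs, so the test was conservative here. It treats libraries as unrelated, although each was closest to a library of the other group. No label gives such pairs, so they were not modelled. The median log2 fold change was 0.029 over the 6 genes and −0.0020 over all genes, with 4 of the 6 higher and 2 lower in Space. DESeq2 and limma-voom also called 0 of the 6 and 0 of all genes. The intervals leave room for differences, since that of Gfra1 reaches 0.748-fold and 1.33-fold and that of Ret 0.893-fold and 1.14-fold.

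**Figure D3:**
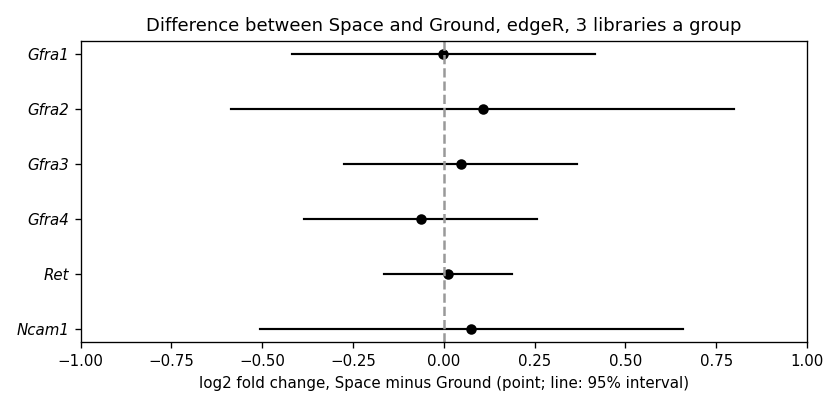
log2 fold change from Ground to Space by edgeR (points) with its 95% interval (lines) for the 6 receptor genes, 3 libraries a group. All intervals cross 0; Ret has the narrowest, −0.16 to 0.19, and Gfra2 the widest, −0.59 to 0.80.

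Within a library, the RNA levels of the receptor genes can be set against each other as a ratio that no scaling of libraries affects. These are ratios of RNA and not of receptor protein. Per kilobase, Gfra1 stood at 0.309 to 0.455 of the level of Ret. The log2 ratio of Gfra1 to Ret, taken with a prior count of 2, was −1.20, −1.29 and −1.69 in Ground and −1.69, −1.39 and −1.14 in Space, with the lowest values in Ground-3 and Space-1. The group means were −1.39 ± 0.264 and −1.41 ± 0.276 (SD), which differed by −0.012, and an exact permutation test over 20 assignments of the libraries (2-sided) gave p = 1. The level of Gfra1 was 77.9 to 117 times that of Gfra2 and 19.4 to 24.3 times that of Ncam1, per kilobase. The log2 ratios of Gfra2 to Gfra1 and Ncam1 to Gfra1 differed between the groups by 0.089 and 0.054, with p = 0.8 and p = 0.7 in the same exact test. All 3 were at 1 after adjustment over the 3 ratios, and 3 libraries against 3 can give no p below 0.1. The log2 ratio of Ncam1 to Gfra1 had an SD of 0.0164 in Ground and 0.164 in Space. Ncam1 carries a counting error of 6.99% a library, so the Ground SD is smaller than counting alone would give. It is no measure of how closely these genes run together. Of the 4 co-receptors summed per kilobase, Gfra1 made up 65.6% to 73.6%, Gfra3 12.9% to 19.7%, Gfra4 12.9% to 15.4% and Gfra2 0.619% to 0.880%. The share of Gfra1 was lowest in Space-1 (65.6%) and Ground-3 (67.1%).

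Of the 4 ligand genes, Nrtn alone was above 1 CPM. Nrtn, which encodes neurturin, had 9.22, 10.5 and 7.76 CPM in Ground and 7.29, 9.43 and 10.2 CPM in Space (log2 fold change −0.029, SE 0.18), while Artn ran from 0.266 to 0.639 CPM. Gdnf and Pspn had too few counts to be tested. Gdnf was at 0 in Ground-1 and Space-1 and at most 0.373 CPM elsewhere, where a count of 3 corresponds to 0.120 to 0.160 CPM. The culture medium itself held GDNF. The receptor of the distant family member GDF15, Gfral, had 1 count in Space-3 and 0 in the other libraries. Gas1, a surface protein related to the GFRA family, had 4.78, 5.54 and 8.20 CPM in Ground and 7.001, 4.21 and 3.20 CPM in Space, so Ground-3 and Space-1 were its highest libraries (log2 fold change −0.36, SE 0.33). Among the listed partners, the adhesion molecule L1cam (0.12, SE 0.33) and the GDNF-binding proteoglycan Sdc3 (−0.019, SE 0.19) were tested, and St8sia2 and St8sia4, whose enzymes add polysialic acid to NCAM1, had too few counts, as did Ncam2.

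Of the 62 listed pathway genes, which include the ligands and partners above as well as genes downstream of the receptor, 55 were tested, and 0 passed in either direction (in Space 32 were higher and 23 lower, 0 had a p below 0.05 before adjustment, and the median log2 fold change was 0.0060). The 27 tested adaptors and kinases, which carry the signal from phosphorylated Ret to the MAPK and AKT routes, were 14 higher and 13 lower. The 10 regulators of Ret, such as the ubiquitin ligase Cbl and the receptor inhibitor Lrig1, were 7 higher and 3 lower. All 12 genes that respond to GDNF in spermatogonia were tested, 10 of them higher and 2 lower, at a median log2 fold change of 0.019.

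Of these 12 GDNF-responsive genes, 8 had a larger SD of log2 CPM over the 6 libraries than Ncam1, the most variable receptor gene, and 10 a larger one than Gfra1. Ccnd2 and Mycn lay between Gfra1 and Ncam1, and Pou3f1 and Id4 varied less than Gfra1. Bcl6b, a transcription factor needed for stem cell self-renewal, had 363.8, 222.3 and 59.1 CPM in Ground and 57.6, 217.6 and 371.3 CPM in Space, a 6.45-fold range. Etv5, an ETS transcription factor induced by GDNF, had 258.8, 201.8 and 93.0 CPM in Ground and 99.1, 194.7 and 261.8 CPM in Space, and Etv4 had 144.0, 102.8 and 59.1 CPM in Ground and 57.4, 106.4 and 148.7 CPM in Space. In each of these genes Ground-3 and Space-1 were lowest, Ground-1 and Space-3 highest, and the groups overlapped. The log2 fold change of Bcl6b between the groups was 0.0030 with an SE of 0.73. Ground-3 and Space-1 were the lowest libraries in 9 of the 12 responsive genes (Bcl6b, Ccnd2, Egr2, Egr3, Etv4, Etv5, Lhx1, Pou3f1 and T) and in 3 of the 6 receptor genes (Gfra1, Gfra4 and Ncam1), against 3545 of all 15104 tested genes (23.5%). They were the highest libraries in 1 of the 12 (Mycn) and in 0 of the 6, against 23.5% of all tested genes. This pair of libraries was picked after the data were seen, and the receptor genes and lists with earlier results of these data known. These shares are therefore a description and not a test. For Gfra4 the order of the libraries is close to counting error. Mycn had 104.5, 119.4 and 172.0 CPM in Ground and 174.1, 124.0 and 101.6 CPM in Space. Lrig1, which restrains Ret and other receptor kinases, took the same course, with 89.4, 110.5 and 143.7 CPM in Ground and 143.8, 107.6 and 93.2 CPM in Space. Among the Ret regulators 6 of 10 had Ground-3 and Space-1 highest, and among adaptors 9 of 27 had them highest and 8 of 27 lowest. Feeder fibroblast markers had Ground-3 and Space-1 lowest in 7 of 20 genes, and their summed level, mostly Fn1 and Col5a1, was lowest in Space-1 and next lowest in Space-3. Space-1 by itself was the lowest library in all of these markers but Fn1 and Twist1. The gap to the next lowest library was wide in Sparc (24.5 CPM against 42.3 CPM in Space-3). It was small in Pdgfra (14.4 CPM against 14.9 CPM in Ground-3). Markers of endothelium had Ground-3 and Space-1 lowest in 2 of 3 genes (Kdr and Cdh5), and their summed level of 20.7, 14.2 and 10.9 CPM in Ground and 10.5, 13.1 and 19.0 CPM in Space ran the same course as Bcl6b. The remaining marker, Pecam1, did not, and Space-1 was its highest library. Pecam1 had 7.70, 8.57 and 8.55 CPM in Ground and 8.85, 7.46 and 8.08 CPM in Space. Kdr had 9.14, 2.93 and 1.14 CPM in Ground and 1.07, 3.57 and 7.56 CPM in Space. Ptprc, 1 of 2 tested macrophage markers, had 13, 9 and 1 counts in Ground and 1, 5 and 26 counts in Space. Its lowest libraries, Ground-3 and Space-1, thus lay below the floor of 3 counts. The other tested marker, Cd68, was lowest in Ground-3 and Ground-2 (14.0 and 16.1 CPM), with 17.2 CPM in Space-1. The part of any of these cells in the receptor values was not tested.

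**Figure D4:**
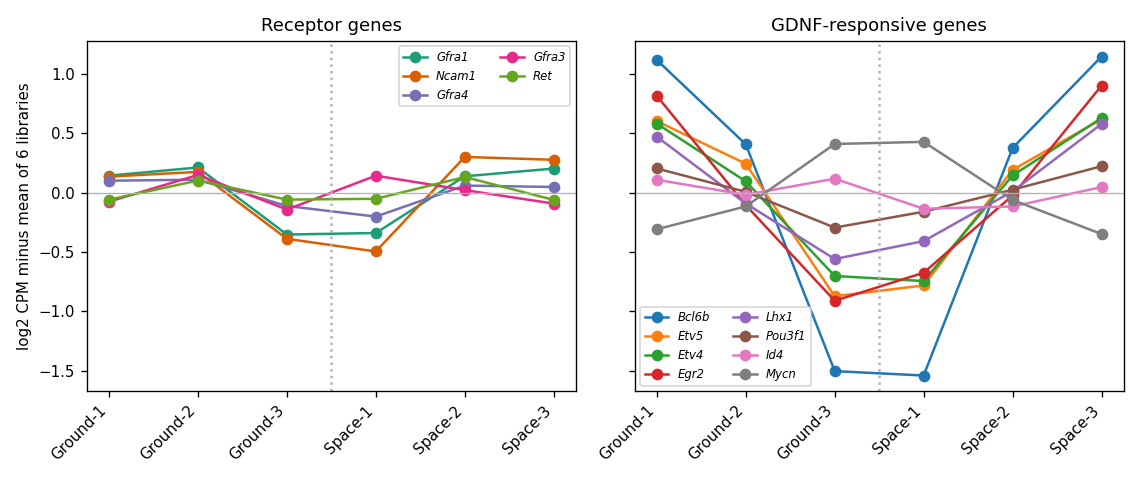
log2 CPM of each gene minus its mean over the 6 libraries, for 5 receptor genes (left; Gfra2 is left out for its low counts) and 8 GDNF-responsive genes (right); lines join the libraries of 1 gene and imply no order. Gfra1 and Ncam1 dip in Ground-3 and Space-1, as do Bcl6b, Etv5, Etv4 and Egr2 by more, while Mycn runs opposite and Ret stays within 0.2.

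Over the 9510 tested genes with a mean of at least 10 CPM, the profile of Gfra1 was most like that of Ssh3, with a root mean square difference of 0.029 in centred log2 CPM over the 6 libraries (median over all candidates 0.273). Clba1, Samd14, Fam174b and Sec24d followed at 0.040 to 0.047. The mirrored profile nearest to Gfra1 was that of Hoxb8, which had 120.9, 117.6 and 166.4 CPM in Ground and 166.3, 122.1 and 119.9 CPM in Space. Odf2 and Hnrnph3 were the next mirrored profiles. The nearest to Ret was Ubac1 (0.012, median 0.128), followed by Chd1l, Sf3b5, Rrm1 and Chst12, with Pou2f1, Vti1b and Tra2b mirrored. Gfra3 was nearest to Eif3j2 (0.028), Siah2, Mcts2, Il6ra and Shroom2, with Zfp692, Dctn3 and Mpv17 mirrored. Gfra4 was nearest to Appl2 (0.015), Slc26a2, Zbtb20, Ddx41 and Ehd1, with Papola, Shb and Cpne1 mirrored. Ncam1 was nearest to Neurl1b (0.054), Mei1, Tpp1, Lama4 and Unc5d, with Zbtb46, Mib2 and Dipk1a mirrored. These are a description of 6 libraries, which are few points for a profile.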

How the data were processed

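For 6 poly(A) RNA libraries of GS cells (3 Space, 3 Ground), grouped by title, the authors deposited raw counts in a single table. Per the submitters' processing notes, reads were demultiplexed with bcl2fastq 2.20, trimmed with cutadapt 4.1, aligned to mm10 with HISAT2 2.2.1 and counted with HTSeq 2.0.2; the study's methods name the GENCODE M21 annotation and another cutadapt version. Labels and methods name different kits, sequencers and read layouts. The strand setting and the handling of reads shared between genes are not given in the sources used here.

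The counts were fitted in R 4.3.3 with edgeR 4.0.16: TMM scaling, filterByExpr, quasi-likelihood F test without a block, Benjamini-Hochberg over 15104 genes, threshold 0.05. The SE is the log2 fold change divided by the square root of F. CPM are relative to TMM-scaled library sizes, with a prior count of 2 for log2 CPM. Lengths and positions came from GENCODE M21 (GRCm38). Alternatives were RLE and total-count scaling, other filters, DESeq2 1.42.0, limma-voom (limma 3.58.1), a replicate block, each library left out, and 2 libraries left out. Procedures were tested on simulated counts. Named genes are the 6 receptor genes, the pathway and marker lists, and the nearest 5 and mirrored 3 profiles of each receptor gene with at least 100 counts in every library. Receptor genes and lists were chosen with earlier results of these data known. The floor of 3 counts covers counting error only.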

Additional observations from a re-analysis of the deposited data

How the results depend on the processing

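The number of receptor genes, pathway genes and all genes past the threshold was 0 under all 14 alternatives, and the smallest adjusted p of a receptor gene was 0.9997. Genes below 0.05 before adjustment numbered 45 with DESeq2, 88 with limma-voom, 192 with no filter and 51 without Ground-2 and Space-2 (added after the data were seen), against 92 as reported. With 1 library left out they numbered 64 to 161, the most without Ground-1 and 122 without Space-2. The log2 fold change of Gfra1 lay so near 0 that it turned sign to 0.0012 with RLE scaling, 0.035 with total counts, 0.0011 with DESeq2 and 0.043 without Ground-2 and Space-2. With 1 library left out, log2 fold changes ran from −0.15 to 0.15 for Gfra1, −0.041 to 0.25 for Gfra2, −0.017 to 0.14 for Gfra3, −0.13 to 0.018 for Gfra4, −0.053 to 0.068 for Ret and −0.082 to 0.30 for Ncam1, and the differences in log2 ratio from −0.16 to 0.13 for Gfra1 to Ret, −0.040 to 0.25 for Gfra2 to Gfra1 and −0.014 to 0.15 for Ncam1 to Gfra1. The sign turned without Ground-1, Ground-2 or Space-1 for Gfra1 and for Gfra1 to Ret, without Ground-1, Ground-3 or Space-2 for Ret, without Ground-3 or Space-1 for Gfra3, without Space-1 for Gfra4, without Space-2 for Gfra2 and for Ncam1 to Gfra1, without Ground-3, Space-2 or Space-3 for Ncam1, and without Ground-1 for Gfra2 to Gfra1. Depth limits Gfra2, whose 18 to 23 counts a library carry a counting error of 22.6%.

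No label ties libraries of the same replicate number to each other. Their deviations from the group means correlated at −0.48 for number 1, 0.28 for number 2 and −0.60 for number 3 over 1000 genes, and 2 of 6 libraries correlated best with their own number. With the replicate block, 0 genes passed, and 63 were below 0.05 before adjustment. Log2 fold changes with the block were −0.0012 for Gfra1, 0.097 for Gfra2, 0.048 for Gfra3, −0.065 for Gfra4, 0.012 for Ret and 0.056 for Ncam1. The ratios' differences paired by number gave p = 1, 1 and 0.75 in an exact sign-flip test, which cannot go below 0.25.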
